A study of Mus musculus with 6 samples.

Results

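Cathepsins are the main proteases of the lysosome, and this account follows 10 of their genes, *Ctsa*, *Ctsb*, *Ctsc*, *Ctsd*, *Ctse*, *Ctsh*, *Ctsk*, *Ctsl*, *Ctss* and *Ctsz*, in mouse liver after loss of *Spns1*. They were taken by gene name, as the lysosomal cathepsins of hepatocytes and macrophages, from a deposited table of 54532 genes, and all 10 were listed in it. RNA-Seq was done on whole liver of 3 g*Spns1*-cKO and 3 control mice, with 1 library per mouse. The g*Spns1*-cKO mice carried loxP sites around exon 3 of both *Spns1* copies and a Cre-ERT2 recombinase expressed from the Rosa26 locus. Tamoxifen at 50 mg/kg on postnatal days 11, 13 and 15 then deleted *Spns1* throughout the body, not in 1 liver cell type. The methods use *Spns1* fl/fl littermates as controls, so the controls share the floxed alleles, whereas the sample labels call them wild type. Sex, the age at which livers were taken, and whether the controls received tamoxifen are not given in the sources used here for these 6 libraries.

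SPNS1 is a membrane protein that carries lysolipids out of the lysosome, the compartment where the cathepsins act. Cathepsins are made as inactive precursors, tagged with mannose-6-phosphate, sorted to endosomes and lysosomes, and cut to the active form in the acidic lumen. They differ in the residue that does the chemistry (cysteine for *Ctsb*, *Ctsc*, *Ctsh*, *Ctsk*, *Ctsl*, *Ctss* and *Ctsz*, aspartate for *Ctsd* and *Ctse*, serine for *Ctsa*) and in where they cut a protein, from inside the chain (endopeptidases) or from either end (exopeptidases). In liver, hepatocytes are a large source of *Ctsb*, *Ctsd*, *Ctsh* and *Ctsl*, and *Ctss* is known as an enzyme of macrophages and other antigen-presenting cells.

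The libraries held between 30350002 and 35295611 counts. Levels are given in CPM (counts scaled to library size by TMM), and errors of means are the SD over 3 mice. TMM gave factors of 0.834 to 0.873 to control and of 1.16 to 1.18 to g*Spns1*-cKO libraries, so the groups differ in composition and small differences depend on the scaling. *Spns1* itself had 35.9, 50.7 and 34.6 CPM in controls and 17.8, 30.6 and 17.8 in g*Spns1*-cKO mice, with no overlap. Its log2 fold change was -0.87 (SE 0.25, adjusted p = 0.030 by edgeR, SE being the standard error), but -0.43 with an adjusted p of 0.213 when only library size was used. The counts are per gene and cannot show the missing exon. Livers are bulk tissue, so more cells of a type and more RNA per cell cannot be told apart.

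Of the 10 cathepsin genes, 9 had enough reads to be tested, and 7 of these rose in g*Spns1*-cKO livers, with Benjamini-Hochberg adjustment over every gene tested and a threshold of 0.05 in the quasi-likelihood test of edgeR. These were *Ctsa*, *Ctsb*, *Ctsd*, *Ctsk*, *Ctsl*, *Ctss* and *Ctsz*. Over all 15449 genes tested, 41.8% were called, 21.3% higher and 20.5% lower. This split, 3286 higher and 3166 lower, moved to 7289 and 970 under library size only and to 4111 and 2240 under upper-quartile scaling. In the same 7 genes the 3 g*Spns1*-cKO livers all lay above the 3 control livers, a separation found for 27.1% of all genes tested. *Ctsh* was separated the other way, as were 26.9%. No member was called lower by edgeR (1, *Ctsh*, at an unadjusted p under 0.05). DESeq2 also called 7 members higher, and it called *Ctsh* lower. The median log2 fold change over the 9 members was 0.65, beside 0.014 over all genes tested. Under library size only, which shifts every gene alike, these medians were 1.09 and 0.46. The family median lay 0.64 above that of all genes, but 0.42 above it with the filter of at least 1 count in any library and 0.48 above it without control 1. *Ctsb* and *Ctsd*, with the smallest log2 fold changes of the 7, are the calls nearest the threshold. With 1 mouse left out in turn, *Ctsb* lost its call in 4 of 6 fits (without control 1, control 2, g*Spns1*-cKO 1 or g*Spns1*-cKO 3) and *Ctsd* in 5 of 6 (all but that without g*Spns1*-cKO 2), with adjusted p up to 0.105 and 0.0739 by edgeR. In these fits their log2 fold changes were between 0.38 and 0.60 for *Ctsb* and between 0.33 and 0.48 for *Ctsd*. The other 5 calls held in each of these fits.

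**Figure D1:**
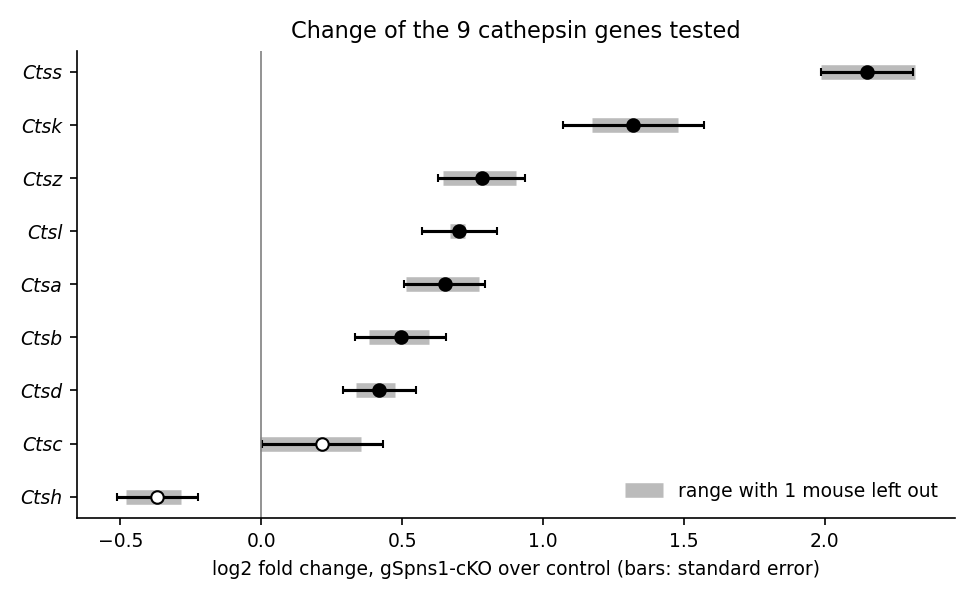
Log2 fold change of the 9 cathepsin genes tested, g*Spns1*-cKO over control, with 1 standard error on each side. Filled points passed an adjusted p of 0.05 in edgeR, open points did not, and grey bands span the estimates with 1 mouse left out in turn; *Ctss* lies at 2.15 and *Ctsh* at -0.37.

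The cysteine endopeptidases *Ctss*, *Ctsk* and *Ctsl* rose together, but by unequal amounts. *Ctss* (ENSMUSG00000038642, GRCm38 chromosome 3, 95526786 to 95556403, plus strand), which trims the invariant chain of MHC class II in antigen-presenting cells, had 19.3, 24.3 and 30.6 CPM in controls and 119, 109 and 100 CPM in g*Spns1*-cKO mice. The lowest g*Spns1*-cKO liver was thus far above the highest control liver. Its log2 fold change was 2.15 (SE 0.16, adjusted p = 1.5e-05 by edgeR), a 4.44-fold rise, and 96.5% of all genes tested had a lower log2 fold change. *Ctsk* (ENSMUSG00000028111, chromosome 3, 95499256 to 95509362, plus strand), the collagen-cutting enzyme of osteoclasts, was scarce, with 31, 51 and 34 counts in control livers against 135, 117 and 137. On the CPM scale it went from 1.37 ± 0.278 to 3.43 ± 0.355 (SD, n = 3), a log2 fold change of 1.32 (SE 0.25, adjusted p = 0.00222 by edgeR). *Ctsl* (ENSMUSG00000021477, chromosome 13, 64359337 to 64370890, minus strand), a broad lysosomal endopeptidase, varied little between mice. It had 631, 637 and 673 CPM in controls and 1032, 1076 and 1052 CPM in g*Spns1*-cKO mice. The 2 groups were far apart relative to this spread. The log2 fold change of *Ctsl* was 0.70 (SE 0.13, adjusted p = 0.00212 by edgeR).

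The members that trim the carboxyl end of proteins, *Ctsz*, *Ctsa* and *Ctsb*, all rose. *Ctsz* (ENSMUSG00000016256, chromosome 2, 174427493 to 174439039, minus strand), a carboxypeptidase, had 272, 387 and 332 CPM in controls and 560, 609 and 535 CPM in g*Spns1*-cKO mice. Its log2 fold change was 0.78 (SE 0.16, adjusted p = 0.00289 by edgeR). *Ctsa* (ENSMUSG00000017760, chromosome 2, 164832873 to 164841032, plus strand), a serine carboxypeptidase that also shields lysosomal β-galactosidase and neuraminidase, had 157, 223 and 191 CPM against 306, 298 and 293 CPM. The g*Spns1*-cKO livers were nearly equal to each other, and the log2 fold change was 0.65 (SE 0.14, adjusted p = 0.00490 by edgeR). *Ctsb* (ENSMUSG00000021939, chromosome 14, 63122462 to 63145923, plus strand), which also cuts inside chains, had 658, 762 and 885 CPM in controls and 1200, 964 and 1082 CPM in g*Spns1*-cKO mice. The gap between the highest control and the lowest g*Spns1*-cKO liver was small beside the range within each group. Its log2 fold change was 0.49 (SE 0.16, adjusted p = 0.0316 by edgeR), and 0.0520 with the replicate block. On the opposite strand, *Ctsa* overlaps *Pltp* and *Neurl2*, *Ctsb* overlaps *Fdft1* and *Ctsz* overlaps *Nelfcd*. Whether counting used strand is not given in the sources used here, so reads in the shared stretches are uncertain.

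Of the aspartic proteases, *Ctsd* was abundant and *Ctse* was barely detected. *Ctsd* (ENSMUSG00000007891, chromosome 7, 142375911 to 142388038, minus strand), an endopeptidase needed for bulk protein breakdown, had 316, 319 and 333 CPM in controls and 479, 397 and 418 CPM in g*Spns1*-cKO mice. Its log2 fold change of 0.42 (SE 0.13, adjusted p = 0.0247 by edgeR) was the smallest among the 7 genes called. *Ctse* (ENSMUSG00000004552, chromosome 1, 131638306 to 131675505, plus strand), an enzyme best known from stomach and immune cells, had 9, 0 and 4 counts in controls and 1, 0 and 9 in g*Spns1*-cKO mice. The groups overlapped and no difference was detectable at this depth. Of 5 stomach markers, 3 had no count in any library.

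Neither member that trims the amino end of proteins was called. *Ctsc* (ENSMUSG00000030560, chromosome 7, 88278085 to 88310888, plus strand), the dipeptidyl peptidase that activates granule serine proteases in immune cells, had 52.1, 83.9 and 90.5 CPM in controls and 101, 71.5 and 90.7 CPM in g*Spns1*-cKO mice. The groups overlapped, with a log2 fold change of 0.22 (SE 0.21, adjusted p = 0.452 by edgeR). *Ctsh* (ENSMUSG00000032359, chromosome 9, 90054152 to 90076089, plus strand), an aminopeptidase, had 273, 333 and 345 CPM in controls and 214, 272 and 250 CPM in g*Spns1*-cKO mice. Every g*Spns1*-cKO liver was below every control liver, with g*Spns1*-cKO 2 and control 1 almost level. The log2 fold change was -0.37 (SE 0.14, adjusted p = 0.0609 by edgeR). Its direction depended on the scaling, at 0.077 under library size only, where *Ctsc* was called higher with 0.66 (edgeR adjusted p = 0.0244). DESeq2 gave -0.38 with an adjusted p of 0.0328 for *Ctsh*. The grouping by site of cutting was made after the values were seen, so it was not tested.

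Levels of different genes can be compared only per length. Per kb of the deposited gene length, which for all 10 members equals the summed length of all their annotated exons in GENCODE M21, *Ctsz* led in both groups, at 229 ± 39.8 CPM per kb in control and 394 ± 26.1 in g*Spns1*-cKO livers. *Ctsd* and *Ctsb* followed and their ranges overlapped in both groups. In control livers the order went on with *Ctsl*, *Ctsh*, *Ctsa*, *Ctss*, *Ctsc*, *Ctsk* and *Ctse*, and only *Ctss* and *Ctsc* overlapped among neighbours. In g*Spns1*-cKO livers *Ctss* stood ahead of *Ctsa* and *Ctsh*, at 80.7 ± 6.99 CPM per kb against 63.4 ± 1.34 and 54.5 ± 6.43, with no overlap. Among all genes tested, 98.2% had a lower control level per kb than *Ctsz*, 84.8% than *Ctss* and 32.1% than *Ctsk*. The length matters for this order. Over 1 principal transcript per gene, *Ctsl* (1971 bases in place of 6489) came first in both groups, at 328 ± 11.7 and 534 ± 11.3 CPM per kb, and *Ctsh* (1617 in place of 4499) ranked 3 in control and 5 in g*Spns1*-cKO livers. With these lengths *Ctss* did not stand ahead of *Ctsa* and *Ctsh*: *Ctss*, at 80.9 ± 7.0, stayed below *Ctsh* at 152 ± 17.9 and next to *Ctsa* at 82.0 ± 1.73 CPM per kb. The principal transcript of *Ctsa* had a support level of 5, against 1, the better level, for the other members. Its length and its place next to *Ctss* are thus less sure.

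**Figure D2:**
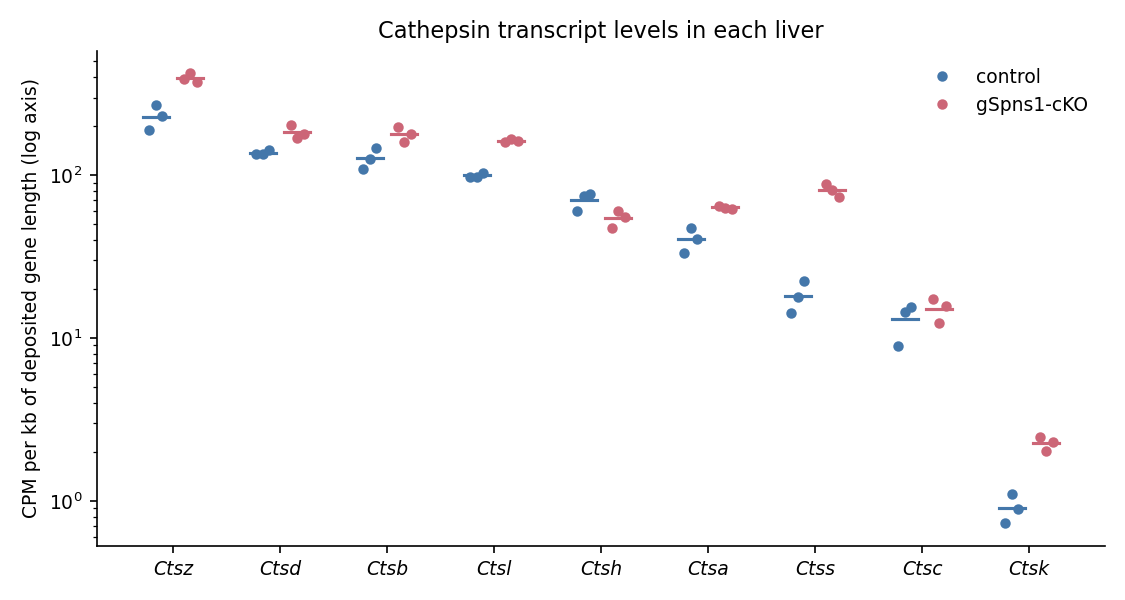
CPM per kb of deposited gene length on a log axis for the 9 cathepsin genes tested, with 1 point per liver and a bar at each group mean. The group means of *Ctss* lie farthest apart, at 18.2 and 80.7, while the *Ctsc* points of both groups overlap.

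Summed over the 10 members, the level was 647, 783 and 779 CPM per kb in controls and 1170, 1135 and 1100 in g*Spns1*-cKO mice, 1.54 times higher. The groups did not overlap (p = 0.1 in a two-sided exact permutation test, which 3 mice against 3 cannot go below). As a share of all counts, which uses no scaling between libraries beyond depth, the cathepsins took between 0.206% and 0.242% in controls and between 0.445% and 0.464% in g*Spns1*-cKO mice.

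The make-up of this pool does not depend on the scaling between libraries, but it does depend on the gene lengths used. *Ctss* held 2.19%, 2.28% and 2.90% of the summed CPM per kb in controls and 7.51%, 7.09% and 6.72% in g*Spns1*-cKO mice. *Ctsh* held 9.36%, 9.47% and 9.84% in controls and 4.07%, 5.32% and 5.05% in g*Spns1*-cKO mice. Both shares separated the groups widely relative to the spread between mice, in opposite directions. *Ctsk* separated them too, at 0.122% ± 0.0153 and 0.20% ± 0.0192 (SD, n = 3). For each of these 3 genes the two-sided exact permutation p was 0.1, the smallest possible, and 0.333 after Benjamini-Hochberg adjustment over the 10 shares. These shares follow from the change of each gene against a pool that was 1.54 times higher, and are no separate result. The shares of *Ctsa*, *Ctsb*, *Ctsc*, *Ctsd*, *Ctse*, *Ctsl* and *Ctsz* overlapped between groups, although that of *Ctsz* did not over principal transcripts. Grouped by site of cutting, the aminopeptidases *Ctsc* and *Ctsh* together held 11.3% ± 0.546 in control and 6.14% ± 0.510 in g*Spns1*-cKO livers, and the cysteine endopeptidases *Ctsk*, *Ctsl* and *Ctss* 16.2% ± 1.19 and 21.6% ± 0.285. The carboxypeptidases *Ctsa*, *Ctsb* and *Ctsz*, at 53.7% ± 2.63 and 56.1% ± 0.668, overlapped between groups. So did the aspartic members *Ctsd* and *Ctse*, at 18.8% ± 1.79 and 16.2% ± 1.28. Over principal transcripts the carboxypeptidases did not overlap, at 37.8% and 41.1%, while the aspartic members did. In shares of counts, with no length, *Ctss* held 0.916% ± 0.131 in control and 2.82% ± 0.181 in g*Spns1*-cKO mice, and *Ctsh* 11.8% ± 0.315 and 6.34% ± 0.920. Over principal transcripts *Ctss* held 1.55% ± 0.240 and 4.72% ± 0.328, and *Ctsh* 16.7% ± 0.530 and 8.87% ± 1.11. The aminopeptidases then held 14.6% and 8.60% of counts, or 19.3% and 10.9% over principal transcripts, and the cysteine endopeptidases 25.3% and 30.1%, or 29.8% and 36.1%. The sizes of these differences thus moved with the length, while the groups did not overlap on any of the 3 scales for *Ctss* or *Ctsh*. Nor did they for the aminopeptidases or the cysteine endopeptidases, but all classes were formed after the values were seen. Within those classes, the shares of *Ctsc* and *Ctsl* overlapped between groups on each scale. Set directly against *Ctsl*, *Ctsh* stood at 0.489 ± 0.0499 counts per *Ctsl* count in control and 0.233 ± 0.0228 in g*Spns1*-cKO mice, and *Ctss* at 0.0380 ± 0.00746 and 0.104 ± 0.0104 (exact permutation p = 0.1 for each). As *Ctsl* itself rose, these ratios restate the unequal changes of the genes and are no separate result either.

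**Figure D3:**
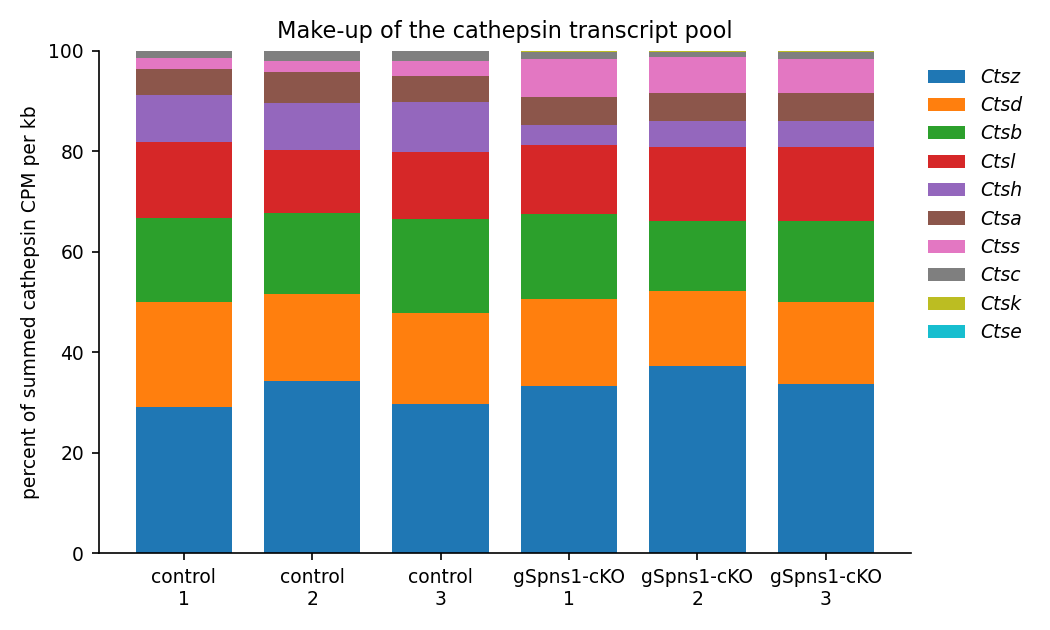
Share of each cathepsin gene in the summed CPM per kb of the 10 members, in percent, 1 bar per liver. The *Ctss* band averages 2.46% in control and 7.11% in g*Spns1*-cKO livers, and the *Ctsh* band 9.56% and 4.81%.

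Markers of macrophages were also higher. Of 14 macrophage markers, all 14 were tested and 13 were called higher by edgeR, with *Mertk* lowest at a log2 fold change of 1.01 and *Gpnmb* highest at 6.84. Their summed level was between 128 and 227 CPM in controls and between 639 and 815 CPM in g*Spns1*-cKO mice. All 5 Kupffer cell markers were also called higher, and their sum went from between 126 and 215 to between 429 and 680 CPM. Relative to the macrophage markers, *Ctss* had 15.1, 13.9 and 13.5 counts per 100 macrophage marker counts in controls and 14.6, 17.1 and 15.1 in g*Spns1*-cKO mice, and these ranges overlapped. The overlap depended on which markers were counted. Without *Gpnmb*, the marker with the largest rise, the marker sum was between 128 and 226 CPM in controls and between 569 and 751 CPM in g*Spns1*-cKO mice. Against that sum the *Ctss* ratios did not overlap and were higher in g*Spns1*-cKO mice. Against all 14 markers, every other tested member was lower per macrophage marker count in each g*Spns1*-cKO liver than in each control liver, from 0.191 times for *Ctsh* to 0.608 times for *Ctsk*. The marker sum was 4.01 times higher in g*Spns1*-cKO mice, more than the rise of any of these members. Their lower mean ratios follow from that and are no separate result. The part of macrophage number in the rise of any member was not tested.

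**Figure D4:**
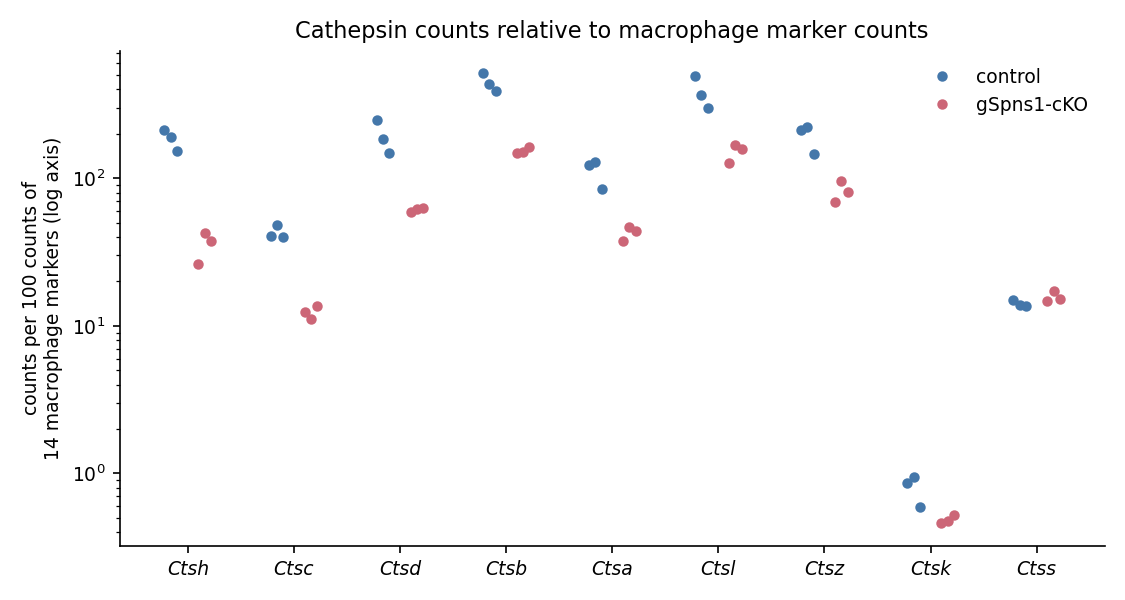
Counts of each tested cathepsin gene per 100 summed counts of 14 macrophage markers on a log axis, 1 point per liver. With all 14 markers counted, the groups overlap for *Ctss* alone, at 14.2 and 15.6 on average. The g*Spns1*-cKO livers lie lower for the other 8 genes, none of which rose as much as the marker sum.

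Of 8 hepatocyte markers tested, 4 were called lower by edgeR and none higher, with *Asgr1* lowest at a log2 fold change of -0.83 and *Cps1* highest at 0.36, and their sum was between 99358 and 111942 CPM in controls and between 61242 and 70596 CPM in g*Spns1*-cKO mice. Most of this sum was *Alb*, at 69348 ± 7160 CPM in control and 41886 ± 3981 in g*Spns1*-cKO livers. These values use TMM. Under library size only the median log2 fold change over all genes was 0.46 in place of 0.014, so the size of these falls depends on the scaling. Markers of other cells also differed: 6 of 6 cholangiocyte markers, 4 of 6 stellate cell markers and 4 of 6 endothelial markers were called higher. Of the dendritic cell markers 2 of 3 tested were higher, of the neutrophil markers 2 of 3, of the T and NK cell markers 2 of 6 with 1 lower, of the erythroid markers 2 of 4 with 1 lower, and of the B cell markers 0 of 4. Over all genes tested, 21.3% were called higher and 20.5% lower, so counts near these shares set no list of markers apart. In these data the cell types that express each cathepsin cannot be separated, and the part of these cells was not tested.

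The promoters of the members were searched for letters known from lysosomal and myeloid genes, since 7 members rose together. Windows from RefSeq (GRCm38.p6, 250 bases before to 50 after a gene's start) were found for 7 of the 10 members, in 8 windows, and were not matched for *Ctsb*, *Ctse* and *Ctsh*. The palindrome CACGTG is the core of the element bound by TFEB and TFE3, the activators of lysosomal genes. It lay in windows of *Ctsa*, *Ctsd* and *Ctsl* and in 7.15% of all 32851 windows. The longer TCACGTGA, which contains CACGTG, lay in windows of *Ctsa* and *Ctsd* and in 0.974% of all windows, and the full CLEAR element, 1 base longer at each end, in none of the members and 0.326% of all. GAGGAAGT, the letters of sites for the myeloid factor PU.1, lay on the opposite strand of *Ctss* and *Ctsc* and in 3.2% of all windows, counting both strands. A match describes letters, not a bound site. The windows below are shown because they hold the matches in genes that rose, each from 250 bases before to 30 bases after the start, 5′ to 3′ on the gene's strand. Capitals mark CACGTG in *Ctsa* (chr2:164833523-164833802, plus strand, the second of its 2 starts), *Ctsd* (chr7:142387798-142388077, minus strand) and *Ctsl* (chr13:64370491-64370770, minus strand), and the reverse of GAGGAAGT in *Ctss* (chr3:95526536-95526815, plus strand).
*Ctsa*: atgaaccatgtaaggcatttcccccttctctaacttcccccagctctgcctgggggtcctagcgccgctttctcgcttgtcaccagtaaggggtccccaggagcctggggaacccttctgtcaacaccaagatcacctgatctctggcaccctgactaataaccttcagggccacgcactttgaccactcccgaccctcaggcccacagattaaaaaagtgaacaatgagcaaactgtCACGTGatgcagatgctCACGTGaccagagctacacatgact
*Ctsd*: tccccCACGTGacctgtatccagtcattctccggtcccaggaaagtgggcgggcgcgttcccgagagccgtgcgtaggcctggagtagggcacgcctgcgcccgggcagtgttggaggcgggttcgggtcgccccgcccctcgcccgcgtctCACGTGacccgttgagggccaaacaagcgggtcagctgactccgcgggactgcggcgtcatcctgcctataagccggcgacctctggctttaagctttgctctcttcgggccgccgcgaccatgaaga
*Ctsl*: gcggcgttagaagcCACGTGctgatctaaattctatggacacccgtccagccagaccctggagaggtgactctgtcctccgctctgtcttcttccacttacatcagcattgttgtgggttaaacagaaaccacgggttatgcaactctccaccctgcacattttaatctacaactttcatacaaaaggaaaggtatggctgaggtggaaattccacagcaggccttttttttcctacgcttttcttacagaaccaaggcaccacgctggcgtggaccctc
*Ctss*: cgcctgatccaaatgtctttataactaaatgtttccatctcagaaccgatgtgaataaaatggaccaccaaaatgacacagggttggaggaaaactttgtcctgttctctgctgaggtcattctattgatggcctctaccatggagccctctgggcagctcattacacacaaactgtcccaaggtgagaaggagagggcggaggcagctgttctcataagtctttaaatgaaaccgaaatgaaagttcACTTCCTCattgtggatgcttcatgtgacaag

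The starts of these windows are those of RefSeq and do not all lie at the gene ends given above. The start of *Ctss* is the same, but that of *Ctsd* lies 211 bases, that of *Ctsl* 370 bases and the second of *Ctsa* 900 bases inside the gene as the deposited table places it. In *Ctsa* the matches began 12 bases before the start and at base 6 of the transcript, in *Ctsd* 245 and 98 bases before the start, and in *Ctsl* 236 bases before it. All of these but the match at 245 bases in *Ctsd* therefore lie within the gene as the table places it. In *Ctss* the reversed GAGGAAGT spanned the start itself. Of the other letters searched, AGAGGAA (10.4% of all windows), of the same myeloid kind, and the AP-1 form TGANTCA (7.81%) lay in no member. TCACGTG (3.77%) and GTCACGTG (2.25%) lay in *Ctsa* and *Ctsd*, where they overlap CACGTG. TCATGTGA (0.986%) and TATAAA (13.6%) lay in *Ctss*, TCANATGA (3.48%) in *Ctsk* and *Ctss*, and GGGCGG (35.7%) in *Ctsc*, *Ctsd*, *Ctss* and *Ctsz*. The window of *Ctsd* was the richest in G and C, at 67.3% with 33 CG pairs, against 44.0% with 5 CG pairs in *Ctss* and 43.7% with 2 in *Ctsk*. *Ctsk* and *Ctss*, with the largest log2 fold changes of the family, also had the windows poorest in G and C among the members matched. A link between composition and the size of the rise was not tested. *Ctsk* and *Ctss* are neighbours on chromosome 3 in the same direction, with 17423 bases between them. The nearest tested genes on either side had smaller log2 fold changes: *Arnt*, before *Ctsk*, had a log2 fold change of 0.34 (SE 0.11, adjusted p = 0.0353 by edgeR) and *Golph3l*, after *Ctss*, 0.86 (SE 0.19, adjusted p = 0.00431 by edgeR).

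Legumain, the lysosomal asparaginyl endopeptidase that cuts several cathepsin precursors into 2-chain forms, rose more than most cathepsins themselves. *Lgmn* had 53.8, 74.8 and 69.0 CPM in controls and 170, 158 and 155 CPM in g*Spns1*-cKO mice, a log2 fold change of 1.29 (SE 0.14, adjusted p = 7.37e-05 by edgeR). Per 100 cathepsin counts there were 2.45 ± 0.225 *Lgmn* counts in control and 4.15 ± 0.0845 in g*Spns1*-cKO mice (SD, n = 3), with no overlap. In the list of 15 sorting and processing genes, all tested, 5 were called higher and none lower by edgeR, beside 21.3% and 20.5% of all genes tested. The median log2 fold change of the list was 0.24. *Gnptab*, a subunit of the enzyme that starts the mannose-6-phosphate tag, had 0.64, and *Gga3* and *Vps35*, of sorting to and from endosomes, 0.60 and 0.55 (edgeR adjusted p = 0.00654, 0.00759 and 0.00351). The receptors for the tag were not called, with log2 fold changes of -0.026 for *M6pr* and 0.064 for *Igf2r*. Among 6 other lysosomal peptidases, *Lgmn* and *Tpp1* were called higher, *Tpp1* with 0.50 (SE 0.12, adjusted p = 0.00804 by edgeR), and the other 4 were not called.

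**Figure D5:**
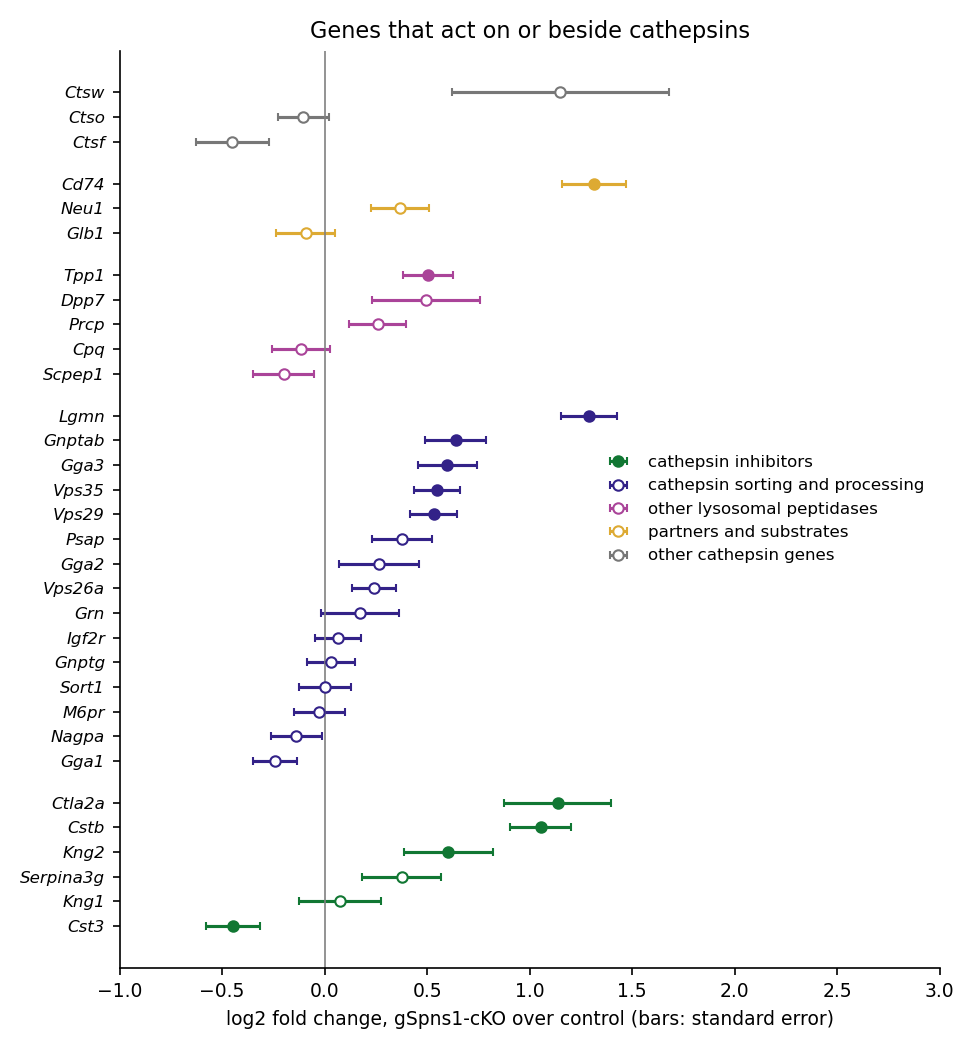
Log2 fold change, g*Spns1*-cKO over control, with 1 standard error on each side for the tested genes of the 5 related lists; *Lgmn*, which is in 2 lists, is drawn once. Colours mark the lists, filled points passed an adjusted p of 0.05 in edgeR and open points did not; *Lgmn* lies at 1.29, *Cstb* at 1.05 and *Cst3* at -0.45.

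The natural inhibitors of the cysteine cathepsins did not move as 1 group. Of 14 listed, 6 were tested, 3 were called higher and 1 lower by edgeR, beside 21.3% and 20.5% of all genes tested. *Cstb*, which encodes the intracellular inhibitor stefin B, went from 42.0 ± 3.46 to 87.2 ± 18.2 CPM, its log2 fold change being 1.05 (SE 0.15, adjusted p = 0.000431 by edgeR). *Cst3*, which encodes cystatin C, the secreted inhibitor, went from 209 ± 15.8 to 153 ± 20.5 CPM, its log2 fold change being -0.45 (SE 0.13, adjusted p = 0.0201 by edgeR), but -0.0047 under library size only, and its call was lost under upper-quartile scaling and without control 2, control 3 or g*Spns1*-cKO 3. Counted within each library, there were 0.202 ± 0.0324 *Cstb* counts per *Cst3* count in control and 0.568 ± 0.0813 in g*Spns1*-cKO livers. The summed cysteine members per kb stood at 3.18, 3.46 and 3.48 times *Cst3* in controls and at 6.52, 7.58 and 8.12 times *Cst3* in g*Spns1*-cKO mice. Set against *Cstb* the same sum overlapped between groups, at 8.10 ± 1.57 and 6.31 ± 1.27. *Ctla2a*, an inhibitor of *Ctsl*-like enzymes, had a log2 fold change of 1.14 (edgeR adjusted p = 0.00591) on at most 64 counts in control livers, and *Kng2*, which carries cystatin-like domains, 0.60 (adjusted p = 0.0486, with overlapping groups). *Kng2* lost its call in 5 of 6 fits with 1 mouse left out, all but that without g*Spns1*-cKO 1. Each of the pair has a close paralog, *Ctla2b* and *Kng1*, with which reads can be shared.

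*Cd74*, which encodes the invariant chain that *Ctss* trims, rose from 49.7, 55.9 and 56.4 CPM in controls to 166, 131 and 107 CPM in g*Spns1*-cKO mice. Its log2 fold change was 1.31 (SE 0.16, adjusted p = 0.000156 by edgeR). The enzymes that *Ctsa* shields were not called, with log2 fold changes of 0.37 for *Neu1* (edgeR adjusted p = 0.0605) and -0.092 for *Glb1* (adjusted p = 0.635). *Neu1* was called at 0.50 under upper-quartile scaling and at 0.81 under library size only (adjusted p = 0.0136 and 0.000796 by edgeR), and was at 0.22 without control 1. Of 13 other cathepsin genes in the table, 9, among them *Ctsg* of neutrophil granules and placental relatives of *Ctsl*, had no count in any library, which allows up to 3 counts, or between 0.0763 and 0.119 CPM, in each. The 3 that were tested were not called by edgeR: *Ctsf* had a log2 fold change of -0.45 (adjusted p = 0.0652), *Ctso* -0.10 (adjusted p = 0.539) and *Ctsw*, known from T and NK cells, 1.15 (adjusted p = 0.104) on between 4 and 56 counts. Under library size only *Ctsf* was at -0.0050, and without control 2 *Ctsw* was at 0.66.

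The pattern of *Ctss* over the 6 livers was closest to that of *Vcam1*, *Tlr13* and *Tlr7*, with root mean square differences of 0.079, 0.101 and 0.114 in centred log2 CPM. The pattern of *Ctsh* was closest to those of *Gm5436*, *Ing1* and *Arl16*, at 0.038, 0.038 and 0.042. Likeness over 6 livers in 2 groups is a description.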

How the data were processed

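The authors deposited raw, whole counts of reads for every gene and liver in 1 table, together with FPKM values, gene lengths, and columns of their own comparison (a mean per group, a log2 fold change and p-values), which were not used. The submitters' processing notes name fastp, HISAT2 2.0.5, featureCounts 1.5.0-p3 and mm10. The FPKM deposited by the authors divide counts by the gene length (exons of all transcripts) and by a total that is 0.837 to 0.880 of the summed counts in control and 1.17 to 1.20 in g*Spns1*-cKO livers. They thus carry a scaling between libraries close to TMM, are no check of it, and entered only 1 alternative. Genes were filtered by filterByExpr (15449 kept) and scaled by TMM, and groups were compared by edgeR 4.0.16 in R 4.3.3 (robust quasi-likelihood test, Benjamini-Hochberg adjustment, threshold 0.05, no covariate). The standard error is the log2 fold change divided by the square root of F. Exact permutation tests were two-sided. P-values rest on the spread between these 6 mice, and those of edgeR, DESeq2 and limma also draw on the spread of the other genes. The floor of 3 counts covers counting error only. Within groups no pair of libraries agreed within sampling noise. DESeq2 1.42.0, limma 3.58.1 (voom), 2 other scalings, 2 other filters, a replicate block and leaving out each mouse were tried. On data simulated for this comparison (15463 genes tested), edgeR recovered 84 of 100 changes of log2 size 1 and 100 of 100 of size 2. The simulation gave every gene the same dispersion, changed few genes, equally up and down, and had no shift in composition between groups. It does not show the power for changes below log2 size 1, where most of the called members lie. The members and lists were chosen with earlier results of these data known. Named genes are all members and *Spns1*, other cathepsins tested, *Neu1*, *Glb1*, *Cd74* and *Lgmn*, the 4 most changed called genes of each related list, the extremes of marker lists, and the 3 genes closest in pattern to the members with the largest rise and fall; *M6pr*, *Igf2r*, *Ctsg*, *Arnt* and *Golph3l* were named after their values were seen. All 12 motifs were searched on both strands, and several overlap CACGTG or each other. Principal transcripts carry GENCODE's APPRIS mark with the best support level available (5 for *Ctsa*, 1 for the other members) and, among these, the shortest length.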

Additional observations from a re-analysis of the deposited data

How the results depend on the processing

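The rise of *Ctsa*, *Ctsk*, *Ctsl*, *Ctss* and *Ctsz* passed the threshold under every alternative run. Between 5 and 7 members were called higher with 1 mouse left out (5 to 8 over all alternatives), and 0 or 1 lower; the member called lower was *Ctsh*, with DESeq2, with the filter of at least 1 count in any library (1 each), and without control 1 or g*Spns1*-cKO 2. The members' median log2 fold change was between 0.51 and 0.68 with 1 mouse left out and 1.09 under library size only, and the log2 fold of the summed level between 0.53 and 0.66, and 1.07 under library size only. *Spns1* was between -1.18 and -0.68 with 1 mouse left out (edgeR adjusted p up to 0.0910, not past the threshold without control 2, g*Spns1*-cKO 1 or g*Spns1*-cKO 3), -0.74 under upper-quartile scaling (adjusted p = 0.0635) and -0.43 under library size only. Under library size only, *Ctsh* (0.077), *Glb1* (0.36) and *Ctso* (0.34) changed sign, as did *Glb1* (0.041) and *Ctso* (0.028) under upper-quartile scaling, *Ctsc* without control 1, and *Glb1* and *Ctso* without control 3; with 1 mouse left out *Ctsc* was between -0.0055 and 0.35, *Glb1* between -0.20 and 0.062, and *Ctso* between -0.19 and 0.026. Genes not called in the report passed under some alternatives: *Neu1* under library size only, upper-quartile scaling and both other filters (lowest adjusted p = 0.000796), *Ctsf* with the looser filter, with the replicate block and without control 1 or g*Spns1*-cKO 2 (lowest 0.00221), *Ctsw* under library size only (0.0255) and the looser filter (0.0425), and *Ctso* (0.0290), *Glb1* (0.0485) and *Ctsc* (0.0244) under library size only. With 1 mouse left out *Neu1* was between 0.22 and 0.46, *Ctsf* between -0.64 and -0.32, and *Ctsw* between 0.66 and 1.51. Over the related lists, 10 genes were higher and 1 lower in the edgeR fit with TMM. With 1 mouse left out, 9 to 11 were higher and 0 to 2 lower. There were 0 lower under upper-quartile scaling, and 2 lower with the looser filter and with the replicate block. Under library size only, 26 were higher and 0 lower. In that setting the calls over all 15449 genes tested moved from 3286 to 7289 higher and from 3166 to 970 lower. The difference in the share of *Ctsh*, between -4.99 and -4.37 percentage points with 1 mouse left out, was -5.48 in shares of counts and -7.86 over principal transcripts; that of *Ctss*, between 4.45 and 4.87, was 1.91 and 3.17. The share of *Ctsa* changed sign without control 1 (-0.039) and control 3 (-0.0033), with a range up to 0.413. The causes were not tested, beyond the changed lengths and scaling themselves. The replicate numbers did not pair the samples: same-numbered livers had correlations of 0.042, 0.032 and -0.027 of their deviations, and the replicate block called 3084 genes higher and 3016 lower, against 3286 and 3166, and ended only the call of *Ctsb* among the members. The principal transcript lengths, the grouped shares on other lengths and the deposited FPKM were alternatives chosen after seeing the data.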
